A study of Homo sapiens with 16 samples.

Results

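The genes LENG9, LRRC56, TNC, CYP19A1, CRYBB1, KLLN, MUC1 and ANKRD34A, all protein-coding, were followed through bulk RNA libraries of the multiple myeloma line NCI-H929, which is of human origin. These 8 genes of the 57500 counted were chosen by their counts, which were among the most clearly lower in cells labelled p300 KO than in cells labelled NTC. The choice thus used the p300 KO and NTC libraries themselves, and the differences of the 8 between those groups are given as a description with no test. The 16 libraries fall into 4 groups of 4. One experiment compared cells given compound 27, a degrader of p300, at 3 nM for 6 h with cells given the solvent DMSO. The other compared p300 KO with NTC, a control whose abbreviation the labels do not spell out. The labels do not say how the knockout was made, or whether it is a clone or a mixed population, or whether replicates were separate cultures, so p-values reflect no more than the spread among these libraries, which may be technical. DMSO and NTC belong to different experiments, so a difference between them and a difference between the experiments cannot be told apart.

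The protein p300, encoded by EP300, is a lysine acetyltransferase that acetylates histones at enhancers and promoters and serves as a coactivator for many transcription factors. Myeloma cells are malignant plasma cells, and p300 and its paralogue CBP are known there for maintaining the plasma cell programme. The genes followed here have roles that are mostly known from other tissues. TNC encodes tenascin-C, a glycoprotein of the extracellular matrix, and MUC1 a transmembrane mucin of epithelia that myeloma cells can also carry. CYP19A1 encodes aromatase, which converts androgens to oestrogens. KLLN encodes killin, an inhibitor of DNA synthesis that responds to p53. CRYBB1 encodes a beta-crystallin of the lens, and LRRC56 a leucine-rich repeat protein needed for the dynein arms of motile cilia. LENG9 is a gene of the leukocyte receptor cluster and ANKRD34A encodes an ankyrin repeat protein, and little is established about what either protein does.

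Total counts ran from 12.6 M to 23.1 M per library (M, mega). Mitochondrial genes took 64.9% of the counts in degrader 2 and 47.7% in p300 KO 1, against 5.99 to 23.5% in the other 14 libraries, and the main counts are given with and without them. EP300 itself, the check of the knockout label, ran from 83.9 to 92.7 CPM (counts per M counts, with library sizes scaled over all 16 libraries) in NTC and from 31.2 to 41.2 CPM in p300 KO (31.2 to 34.9 CPM without p300 KO 1), a log2 fold change of -1.25 ± 0.11 (SE; edgeR, adjusted p = 2.20e-04). In DMSO, EP300 ran from 39.8 to 50.5 CPM, so NTC was also above DMSO, by a log2 difference of 0.92. Of the p300 KO libraries, p300 KO 1 lay inside the DMSO range and the others below it. With the degrader EP300 ran from 53.1 to 55.3 CPM, except for 151 CPM in degrader 2. The 10 plasma cell markers summed to between 8063 and 15937 CPM in each library, with none at 0 in any group. In bulk libraries, fewer cells of a type and less RNA per cell cannot be told apart.

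On GRCh38, LENG9 (ENSG00000275183) lies on chromosome 19, minus strand, from 54461796 to 54463711, in 1 exon. LRRC56 (ENSG00000161328) spans chromosome 11 from 537527 to 554916 on the plus strand. TNC (ENSG00000041982) occupies chromosome 9, minus strand, from 115019578 to 115118257. CYP19A1 (ENSG00000137869), the longest locus of the 8, spans chromosome 15, minus strand, from 51208057 to 51338610. CRYBB1 (ENSG00000100122) is on chromosome 22, minus strand, from 26599278 to 26618088. KLLN (ENSG00000227268) is on chromosome 10, minus strand, from 87859161 to 87863437, in 1 exon. MUC1 (ENSG00000185499) and ANKRD34A (ENSG00000272031) are both on the minus strand of chromosome 1, from 155185824 to 155192916 and from 145959442 to 145964582. The 8 genes thus lie on 7 chromosomes, and the pair on chromosome 1 is far apart.

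The promoters of the 8 genes do not share 1 architecture. RefSeq start sites (GRCh38.p14) gave 15 windows for the 8 genes, each from 250 bases before the start to 50 after it, and 6 short motifs were searched on both strands. The 250 bases before the start are shown for LENG9, CRYBB1 and MUC1, which stand for a GC-box promoter, a TATA promoter with no GC box, and a promoter with both. They run 5′ to 3′ on the minus strand, at chr19:54463779-54464028, chr22:26618028-26618277 and chr1:155192916-155193165, and capitals mark matches to the GC box GGGCGG and the TATA box TATAAA.
LENG9: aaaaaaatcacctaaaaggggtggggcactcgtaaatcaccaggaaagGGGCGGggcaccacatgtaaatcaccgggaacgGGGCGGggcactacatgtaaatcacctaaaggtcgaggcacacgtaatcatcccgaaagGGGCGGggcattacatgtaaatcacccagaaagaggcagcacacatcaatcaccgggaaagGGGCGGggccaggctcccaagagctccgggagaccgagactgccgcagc
CRYBB1: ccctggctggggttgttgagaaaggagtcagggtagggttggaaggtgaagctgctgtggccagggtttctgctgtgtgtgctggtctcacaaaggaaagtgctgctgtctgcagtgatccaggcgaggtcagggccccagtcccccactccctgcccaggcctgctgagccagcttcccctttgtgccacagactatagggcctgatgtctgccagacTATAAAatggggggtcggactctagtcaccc
MUC1: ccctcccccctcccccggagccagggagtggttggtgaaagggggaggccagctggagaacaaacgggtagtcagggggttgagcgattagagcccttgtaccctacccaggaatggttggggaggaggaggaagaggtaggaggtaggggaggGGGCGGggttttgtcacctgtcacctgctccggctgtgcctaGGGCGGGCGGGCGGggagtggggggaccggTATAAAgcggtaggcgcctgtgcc
In LENG9, 4 GC boxes start at positions -202, -169, -110 and -49 from the RefSeq start, which is counted as position 1. The only match in CRYBB1 is a TATA box at -31. MUC1 has a GC box at -96, 3 overlapping ones from -54 to -41 and a TATA box at -24. A GC box was found in 9 of the 15 windows, beside 45.0% of all 35116 RefSeq windows, and CRYBB1 is the only gene of the 8 with none. Some of the 15 windows overlap, such as the pair of MUC1, and 7 belong to CYP19A1. The cyclic AMP response element TGACGTCA, to which the p300 partner CREB binds, was in none of the 15 windows and is in 1.85% of all windows. The AP-1 motif TGANTCA was in 2 windows, both of CYP19A1, against 7.71% of all windows. The TATA box was in 5 of the 15 windows, all of CRYBB1, MUC1 and CYP19A1, against 11.5% of all windows. The CCAAT box CCAAT was in 6 of the 15 windows, all of ANKRD34A and CYP19A1, against 34.6% of all windows, and the E-box CACGTG was in 1 window, that of LRRC56, against 7.26%. The windows of LRRC56 and CYP19A1 lie at least 18539 bases from the gene start in the count files, so they stand for other start sites than those the counted models begin with. These matches describe letters in a window and not bound sites.

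In every one of the 8 genes, each p300 KO library was below each NTC library, and p300 KO held between 18.7 and 34.6% of the NTC level. All NTC libraries were also above all DMSO libraries in every one of the 8. By the rule that chose the genes, the first of these patterns was fixed, and across all 18068 genes compared it was seen in 17.7%. NTC stood wholly above DMSO in 31.9% of those genes. The NTC libraries entered the choice, so this second pattern is given as a description too. With 1 p300 KO library rich in mitochondrial counts left out, the range of the 8 genes was 21.1 to 35.9% of NTC.

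**Figure D1:**
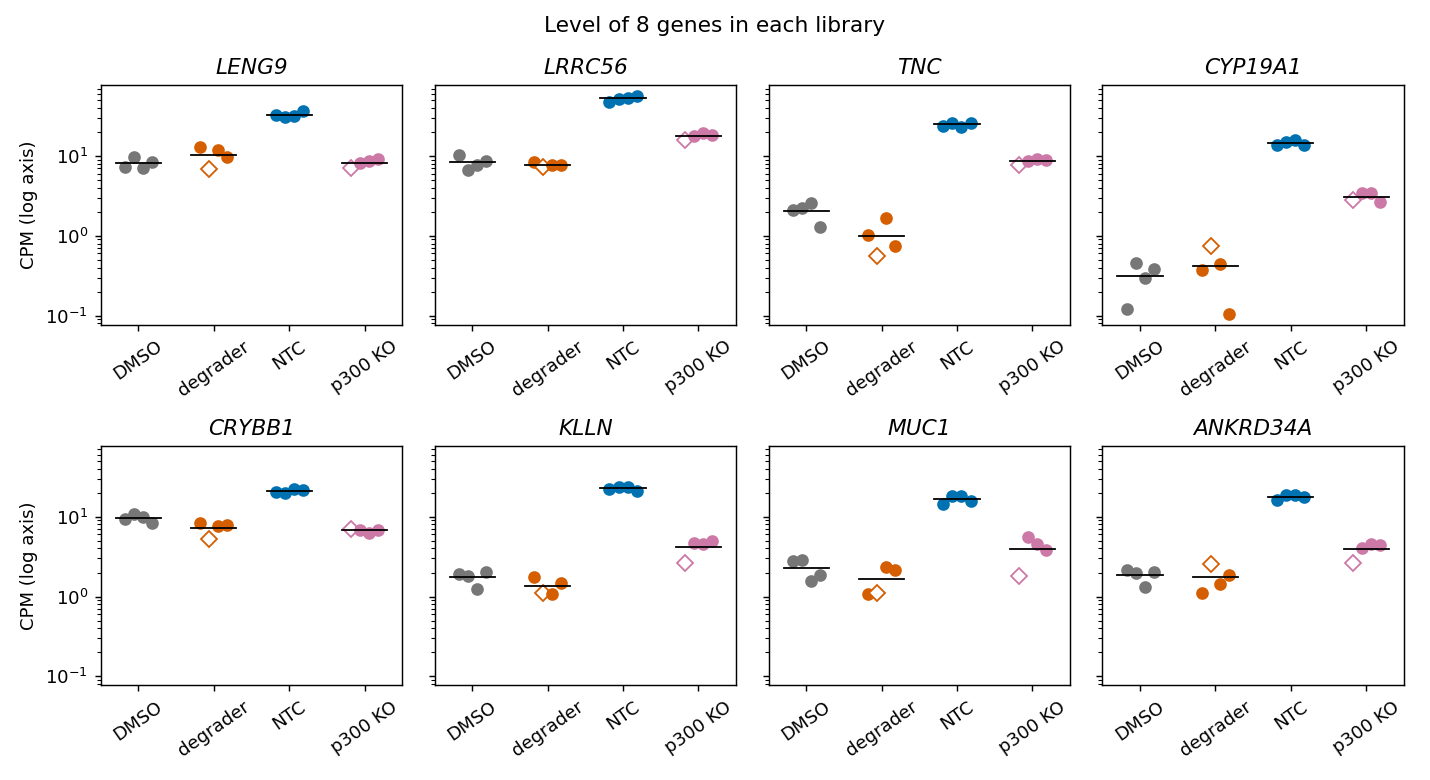
Level of each gene in each of the 16 libraries, in CPM on a log axis, by group; points are libraries, open diamonds degrader 2 and p300 KO 1 (rich in mitochondrial counts), and short bars group means. NTC is the highest group in all 8 panels, and in the panels of LRRC56, TNC, CYP19A1, KLLN and ANKRD34A every p300 KO library lies between NTC and DMSO.

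TNC, the matrix glycoprotein, read 24.1, 26.0, 23.3 and 26.2 CPM in NTC 1 to 4 and 7.63, 8.74, 9.09 and 9.02 CPM in p300 KO 1 to 4. Its DMSO libraries read 2.10, 2.24, 2.58 and 1.30 CPM and its degrader libraries 1.02, 0.556, 1.68 and 0.738 CPM. The 3 higher groups, NTC, p300 KO and DMSO, did not overlap. The mean in NTC was 2.89 times that in p300 KO, a log2 fold change of -1.48 ± 0.07 (SE). NTC stood 12.1 times above DMSO, and p300 KO 4.19 times above DMSO.

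MUC1, the mucin, read 14.3, 18.2, 18.4 and 15.8 CPM in NTC and 1.83, 5.50, 4.54 and 3.85 CPM in p300 KO. It read 2.76, 2.91, 1.56 and 1.84 CPM in DMSO, and with the degrader 1.07, 1.11, 2.37 and 2.16 CPM. Here p300 KO 1, the library rich in mitochondrial counts, sat inside the DMSO range while the other 3 p300 KO libraries sat above it. The log2 fold change of p300 KO against NTC was -1.999 ± 0.22, with the widest error among the 8. NTC was 7.36 times DMSO, and p300 KO was at 23.6% of NTC with all libraries and at 27.8% without p300 KO 1.

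CYP19A1, the aromatase gene, was nearly silent in the degrader experiment. It read 0.120, 0.459, 0.299 and 0.379 CPM in DMSO, and with the degrader 0.374, 0.741, 0.445 and 0.105 CPM, from only 23 and 22 counts summed over the 4 libraries of each group. In NTC it read 13.7, 15.2, 15.97 and 13.9 CPM, and in p300 KO 2.78, 3.41, 3.47 and 2.69 CPM. NTC, p300 KO and DMSO were again 3 separate levels. The fold of p300 KO against NTC was -2.19 ± 0.11 on the log2 scale. NTC stood 46.7 times above DMSO, the widest gap between controls among the 8 genes, and p300 KO stood 9.82 times above DMSO. These values rest on 2, 9, 5 and 7 counts in DMSO 1 to 4 and on 7, 4, 9 and 2 counts in degrader 1 to 4. Single values of CYP19A1 in both groups are thus at or near the limit of detection, also the 0.741 CPM of degrader 2.

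KLLN, the killin gene, read 22.2, 23.5, 23.8 and 21.1 CPM in NTC and 2.62, 4.73, 4.58 and 5.01 CPM in p300 KO. In DMSO it read 1.92, 1.78, 1.26 and 2.00 CPM, and with the degrader 1.76, 1.11, 1.09 and 1.47 CPM. It had the largest fold of the 8 between NTC and p300 KO, 5.35 times, or -2.34 ± 0.14 on the log2 scale. Levels in p300 KO were 2.43 times those in DMSO, with no overlap, and NTC was 13.0 times DMSO. Whether reads were counted by strand is not given in the sources used here, so its values, like those of other genes with overlapping exons, are uncertain.

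CRYBB1, the lens crystallin, was the exception to the order of the groups. It read 20.2, 19.7, 22.5 and 21.5 CPM in NTC, 6.99, 6.86, 6.34 and 6.91 CPM in p300 KO, and 9.43, 10.96, 10.1 and 8.29 CPM in DMSO. The degrader libraries read 8.23, 5.19, 7.66 and 7.90 CPM. All p300 KO libraries were thus below all DMSO libraries, at 0.70 times the DMSO mean, which no other of the 8 genes showed and which 19.9% of all genes compared did. Against NTC the log2 fold change was -1.58 ± 0.09. The gap between the controls, 2.16 times, was the smallest among the 8.

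LRRC56, the gene of dynein arm assembly, read 48.1, 52.0, 53.7 and 56.8 CPM in NTC and 16.05, 17.97, 19.3 and 18.6 CPM in p300 KO. DMSO held 10.4, 6.68, 7.67 and 8.72 CPM, and the degrader libraries 8.50, 7.23, 7.66 and 7.69 CPM. The order NTC, p300 KO, DMSO held without overlap. The fold of p300 KO against NTC was -1.50 ± 0.07 on the log2 scale. NTC was 6.30 times DMSO and p300 KO 2.15 times DMSO.

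LENG9 of the leukocyte receptor cluster read 32.9, 31.0, 31.5 and 36.5 CPM in NTC and 7.07, 8.22, 8.61 and 9.10 CPM in p300 KO. It read 7.27, 9.58, 7.07 and 8.45 CPM in DMSO, and with the degrader 13.1, 6.86, 12.1 and 9.59 CPM. The p300 KO and DMSO libraries covered the same range, and the difference between them was 0.03 ± 0.16 on the log2 scale. Against NTC, p300 KO was lower by a log2 fold change of -1.94 ± 0.08, or 25.03% of NTC.

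ANKRD34A, the ankyrin repeat gene, read 16.2, 19.0, 18.8 and 17.5 CPM in NTC and 2.62, 4.09, 4.50 and 4.47 CPM in p300 KO. In DMSO it read 2.16, 1.99, 1.32 and 2.06 CPM, and with the degrader 1.12, 2.59, 1.43 and 1.84 CPM. The p300 KO libraries lay above all DMSO libraries and far below NTC. The fold against NTC was -2.12 ± 0.13 on the log2 scale, and NTC was 9.50 times DMSO.

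Across the 8, the median log2 fold change of p300 KO against NTC was -1.97, beside 0.02 over all 17350 genes tested, of which 10.7% were called lower and 6.23% higher (edgeR, adjusted p under 0.05). The 8 are not the coding genes with the largest folds. Ranked by fold among 13201 coding genes tested they stood between place 25 (KLLN) and place 130 (TNC). Ranked by p among coding genes that were lower, LENG9, LRRC56, TNC, CYP19A1, CRYBB1, KLLN and ANKRD34A took places 1 to 7 and MUC1 place 80. CRB2, a cell polarity gene, came next at place 8 with a log2 fold change of -1.84. The set is therefore better described by the clearness of the difference than by its size. Within p300 KO, replicate 1 was the lowest library in 6 of the 8 genes.

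Between the 2 controls, the median log2 difference of NTC over DMSO was 3.06, beside 0.01 over all genes. By gene it was 1.11 ± 0.12 for CRYBB1, 2.02 ± 0.16 for LENG9, 2.66 ± 0.12 for LRRC56, 2.87 ± 0.30 for MUC1, 3.24 ± 0.21 for ANKRD34A, 3.60 ± 0.21 for TNC, 3.69 ± 0.20 for KLLN and 5.49 ± 0.30 for CYP19A1 (SE). Thus for 7 of the 8 genes, all but CRYBB1, the difference between the controls was at least as large as that between p300 KO and NTC. All p300 KO libraries were above all DMSO libraries in 5 of the 8 genes, beside 19.6% of all genes compared. The full order of NTC above p300 KO above DMSO, with no overlap, was seen in the same 5, LRRC56, TNC, CYP19A1, KLLN and ANKRD34A, and in 3.56% of all genes compared. Its upper step was fixed by the choice of the genes. These values share the NTC libraries, so the 2 differences of a gene are not independent of each other.

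**Figure D2:**
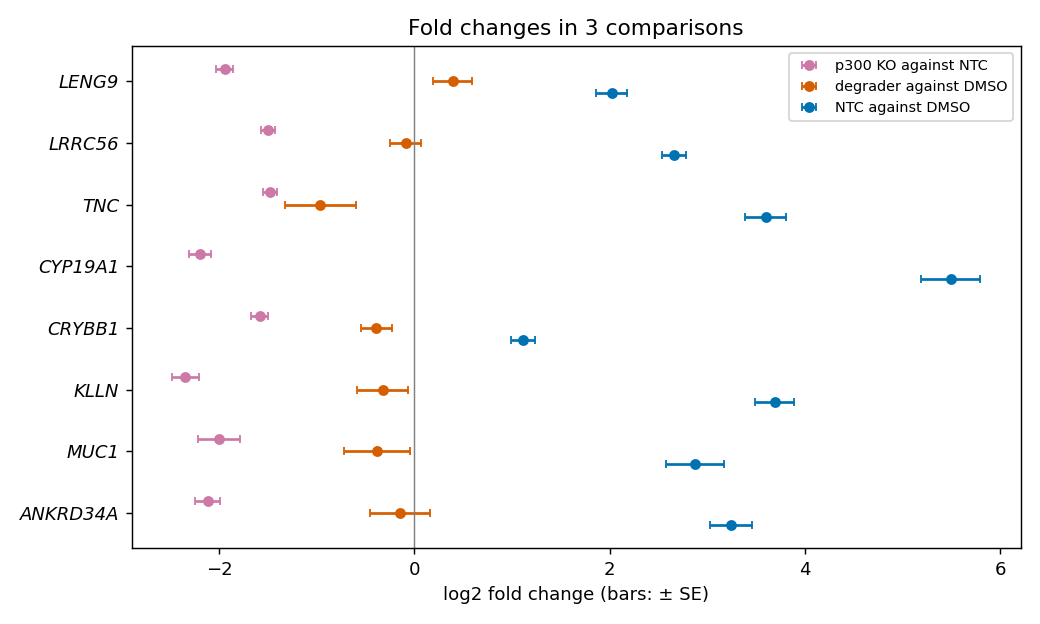
Log2 difference of each gene in 3 comparisons, p300 KO against NTC, NTC against DMSO and degrader against DMSO, with bars of 1 SE; CYP19A1 has no degrader value. The knockout values run from -2.34 to -1.48, the control values from 1.11 to 5.49 and the degrader values from -0.96 to 0.39.

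With the degrader, none of the 7 genes that could be tested was called by edgeR at an adjusted p under 0.05, beside 4.76% of all 15872 genes. The degrader and DMSO libraries took no part in choosing the genes, so this test stands apart from the choice. By direction, 3.12% of all genes were called lower and 1.64% higher. Before adjustment 2 were under 0.05, TNC and CRYBB1. DESeq2 and limma-voom also called 0. Summed over the 4 DMSO libraries, TNC, KLLN, MUC1 and ANKRD34A had only 146, 125, 163 and 135 counts. LENG9, LRRC56 and CRYBB1 had 583, 593 and 693. In the genes with few counts, an absent call does not show an absent response. The sign was negative in 6 of the 7, and the median log2 fold change was -0.32, beside 0.05 over all genes. The shares of all genes under 0.05 before adjustment, or with a negative sign, were not counted. These member counts are therefore a description only.

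TNC was at 48.5% of its DMSO mean with the degrader, a log2 fold change of -0.96 ± 0.36 (SE; edgeR, unadjusted p = 0.0268, adjusted p = 0.177). Only 70 counts over the 4 degrader libraries lay behind that value, and the highest degrader library was above the lowest DMSO library. CRYBB1 was at 74.8% of DMSO, at -0.39 ± 0.16 (edgeR, unadjusted p = 0.0402, adjusted p = 0.216). It was the only 1 of the 8 genes with all degrader libraries below all DMSO libraries, a pattern that 9.2% of all genes compared showed. None of the 8 had all degrader libraries above all DMSO libraries, which 6.61% of all genes did. LENG9 had the only positive value, 0.39 ± 0.20 (edgeR, adjusted p = 0.311). The log2 fold changes of KLLN, MUC1, ANKRD34A and LRRC56 were -0.32 ± 0.26, -0.38 ± 0.34, -0.15 ± 0.31 and -0.09 ± 0.16, with adjusted p of 0.524, 0.570, 0.826 and 0.796 by edgeR. CYP19A1 had too few counts to be tested.

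Leaving out degrader 2, the library with 64.9% mitochondrial counts, changed 2 of these calls. LENG9 was then higher by 0.51 on the log2 scale (edgeR, adjusted p = 0.0115), and TNC was lower by a log2 fold change of -0.84 (adjusted p = 0.0477). In that fit 38.5% of all genes tested were called, so 2 of 7 is not above the background. The 3 remaining degrader libraries of LENG9 averaged 11.6 ± 1.82 CPM against 8.09 ± 1.17 CPM in DMSO (SD, n = 3 and 4). Fitting all 16 libraries together called TNC only, at -0.92 (edgeR, adjusted p = 0.0244), beside 12.7% of all 18068 genes. The spread in that fit was also estimated from the NTC and p300 KO libraries, which entered the choice. This call of TNC therefore does not stand apart from the choice.

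Per kilobase of exon, the order of the 8 genes differed between groups. In DMSO, CRYBB1 was highest at 8.79 ± 1.02 FPKM (here the CPM per kilobase of exon; SD, n = 4), followed by LENG9 at 4.22 ± 0.61 and LRRC56 at 3.02 ± 0.57, a pair whose libraries overlap. ANKRD34A, MUC1 and KLLN, at 0.512, 0.481 and 0.407 FPKM, could not be ordered by their ranges. TNC at 0.213 and CYP19A1 at 0.0373 FPKM came last and did not overlap. In NTC, LRRC56 at 19.0 ± 1.30, CRYBB1 at 19.0 ± 1.14 and LENG9 at 17.2 ± 1.29 FPKM overlapped from neighbour to neighbour. KLLN at 5.29 ± 0.29 and ANKRD34A at 4.86 ± 0.34 overlapped, while MUC1 at 3.53, TNC at 2.58 and CYP19A1 at 1.74 FPKM were each separate.

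In p300 KO, LRRC56 at 6.49 and CRYBB1 at 6.15 FPKM overlapped and LENG9 at 4.31 FPKM stood below both. The next 4, ANKRD34A, KLLN, TNC and MUC1, lay within 1.07 to 0.833 FPKM and each overlapped the next. CYP19A1 was last at 0.366 FPKM, and its range met that of MUC1. With the degrader, CRYBB1 at 6.57 and LENG9 at 5.43 FPKM led and overlapped, followed by LRRC56 at 2.81 FPKM. ANKRD34A, MUC1 and KLLN lay at 0.475, 0.356 and 0.318 FPKM. TNC at 0.103 and CYP19A1 at 0.0493 FPKM overlapped at the bottom. CYP19A1 thus had the lowest mean of the 8 per length in every group, with the overlaps given above.

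**Figure D3:**
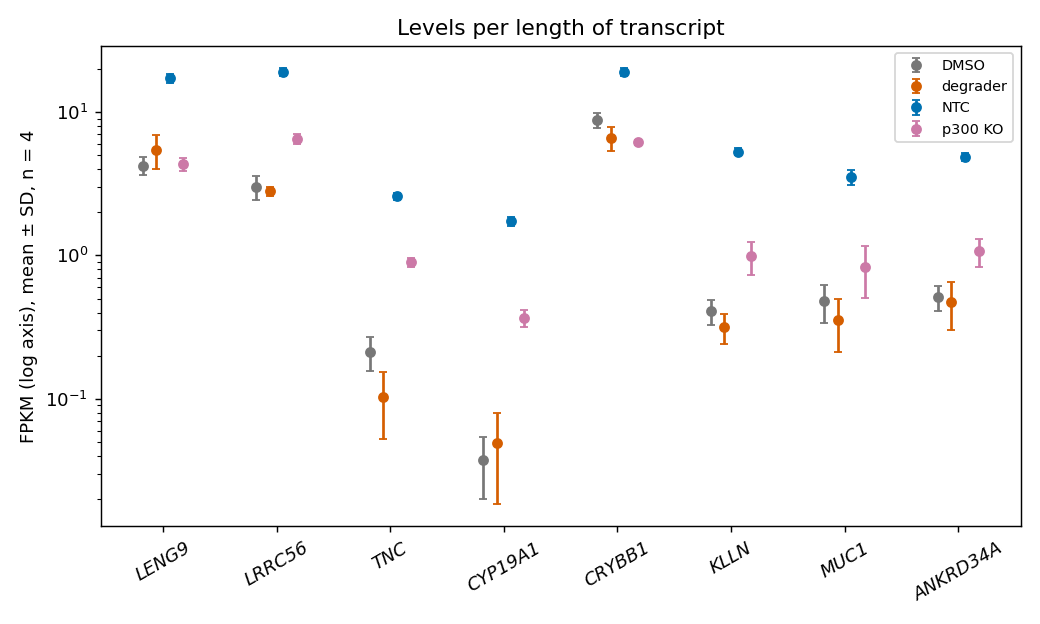
Mean level of each gene per kilobase of exon in the 4 groups, in FPKM on a log axis; points are means and bars 1 SD either side (n = 4). CRYBB1, LENG9 and LRRC56 are the 3 highest genes in every group, and CYP19A1 is the lowest.

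The genes next to the 8 were called about as often as genes at large. Within 25 kb lie 46 other genes, of which 26 could be tested in the knockout comparison, and 5 were called by edgeR, 3 lower and 2 higher, beside 17.0% of all genes. The median log2 fold change of the 26 neighbours was 0.02. TNC and CYP19A1 have no tested neighbour, since DELEC1 beside TNC and MIR4713HG and MIR4713 beside CYP19A1 had too few counts. Of the 46, 8 share exon bases with a member, and 6 of the 8 members are touched, all but TNC and CRYBB1.

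Beside LRRC56, LMNTD2-AS1 fell from 4.90 ± 1.00 to 1.65 ± 0.67 CPM (SD, n = 4; log2 fold change -1.54 ± 0.30 SE, edgeR adjusted p = 0.00873), and LMNTD2, a lamin tail domain gene, fell from 9.94 ± 0.99 to 5.79 ± 1.29 CPM (-0.74 ± 0.17, adjusted p = 0.0188). LMNTD2 shares 62 exon bases with LRRC56 on the opposite strand, and LMNTD2-AS1 is an antisense transcript, so reads may be split between these genes. In DMSO, LMNTD2-AS1 read 0.780 ± 0.30 CPM and LMNTD2 3.84 ± 0.39 CPM, both below their p300 KO means. The call of LMNTD2 was lost without p300 KO 2, 3 or 4 or NTC 2, 3 or 4 (adjusted p up to 0.0650). HRAS, 240 bases from LRRC56 on the other strand and encoding a small GTPase, read 86.0 ± 3.28 CPM in NTC and 74.4 ± 13.5 CPM in p300 KO (-0.15, adjusted p = 0.498).

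CFL1P1, a pseudogene near KLLN, had a log2 value of -0.38 ± 0.50 in the knockout comparison (edgeR, adjusted p = 0.623). LENG8, whose exons cover 242 bases of LENG9 from the other strand, stood at 0.12 (log2 scale, edgeR adjusted p = 0.243). CDC42EP5, on the other side of LENG9, stood at -1.22 ± 0.50 (adjusted p = 0.125) with under 1 CPM in each group on average except with the degrader.

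Near CRYBB1, TPST2, a tyrosylprotein sulfotransferase gene, read 157 ± 12.4 CPM in NTC and 112 ± 29.6 CPM in p300 KO (-0.44 ± 0.16, edgeR adjusted p = 0.0822), and the crystallin gene CRYBA4 was too low to test. POLR3GL, which encodes an RNA polymerase III subunit and lies 120 bases from ANKRD34A, rose from 58.1 ± 1.36 to 74.3 ± 2.58 CPM (0.41 ± 0.07, adjusted p = 0.00447). GBAP1, a pseudogene near MUC1 with a close functional copy, rose by 0.35 ± 0.09 (adjusted p = 0.0300), and this call was lost without any 1 of the libraries other than p300 KO 1 (adjusted p up to 0.0923). Under total-count scaling both calls ended, with POLR3GL at 0.23 (adjusted p = 0.510) and GBAP1 at 0.20 (adjusted p = 0.668). TRIM46, 853 bases from MUC1, had 0.21 (adjusted p = 0.0726). Without p300 KO 1, 9 neighbours were called lower and 5 higher of 26, in a fit that called 40.9% of all genes.

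With the degrader, 23 neighbours were tested and 2 were called, both lower, beside 4.76% of all genes called and 3.12% called lower. MIR210HG, the host transcript of a hypoxia microRNA near LRRC56, fell from 21.1 ± 3.29 CPM in DMSO to 5.12 ± 0.71 CPM (-2.05 ± 0.16, edgeR adjusted p = 6.06e-04). TRIM46, a microtubule-associated protein gene, fell from 19.9 ± 2.82 to 10.98 ± 1.36 CPM (-0.84 ± 0.14, adjusted p = 0.0127), a call lost without degrader 1 or 3 or DMSO 1 or 4 (adjusted p up to 0.0732). LRRC56 and MUC1 themselves were not called with the degrader. Without degrader 2, 12 neighbours were called lower and 2 higher of 25, in the fit that called 38.5% of all genes. Total-count scaling ended the call of TRIM46 (adjusted p = 0.265) and not that of MIR210HG.

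**Figure D4:**
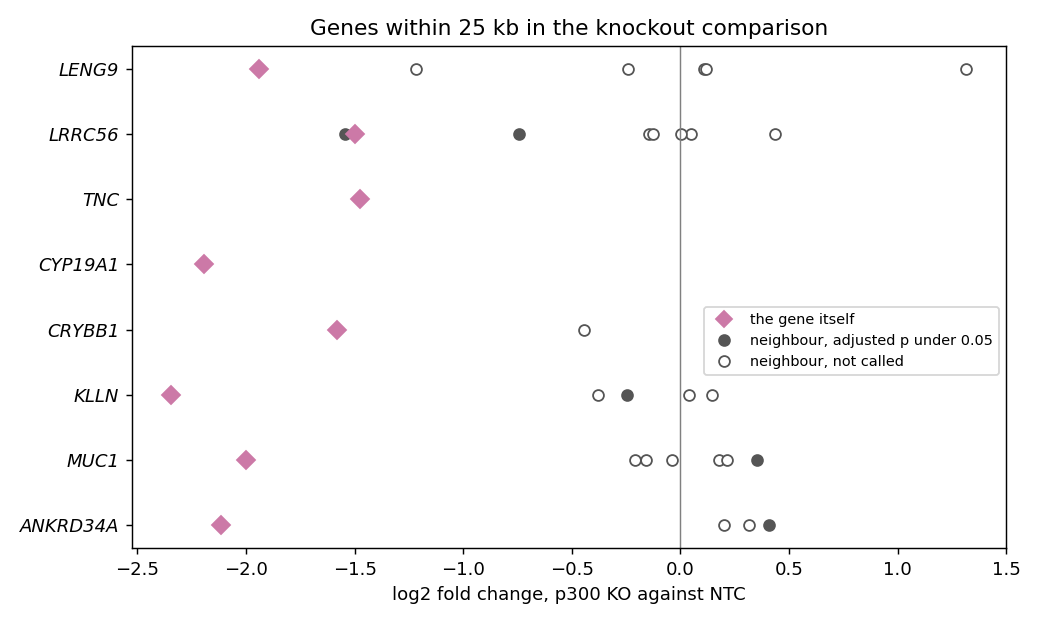
Log2 fold change of p300 KO against NTC for each of the 8 genes (diamonds) and for the tested genes within 25 kb (circles, filled where the adjusted p was under 0.05). The diamonds lie between -2.34 and -1.48, and LMNTD2-AS1 beside LRRC56 is the only called neighbour in that range.

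Genes that work with the 8 were looked at through 7 lists, with the 8 left out. Of 128 list genes 73 were tested in the knockout comparison, and 12 fell and 4 rose (edgeR), 16 in all beside 17.0% of all genes tested. The median log2 fold change over the 73 was -0.01. Without p300 KO 1, 18 fell and 17 rose of 74, in the fit that called 40.9% of all genes. The lists are described in turn below, and no list was tested as a whole.

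Around TNC, 12 other matricellular proteins, tenascins and tenascin-C receptors were tested, and 5 fell and 0 rose, beside 10.7% lower and 6.23% higher over all genes, with a median log2 fold change of -0.37. Without p300 KO 1, 7 fell and 2 rose, in the fit that called 40.9% of all genes. ITGA2, the collagen receptor subunit alpha 2, fell from 2.56 ± 0.18 to 1.10 ± 0.40 CPM (SD, n = 4; -1.14 ± 0.23 SE, edgeR adjusted p = 0.00965). TLR4, the lipopolysaccharide receptor that also binds tenascin-C, fell from 26.2 ± 1.28 to 13.9 ± 4.22 CPM (-0.85 ± 0.17). TNXB, which encodes tenascin-X, fell from 5.69 ± 0.58 to 3.64 ± 0.17 CPM (-0.60 ± 0.12), and ANXA2, which encodes the cell-surface annexin A2, from 401 ± 11.8 to 283 ± 47.1 CPM (-0.45 ± 0.09). Adjusted p was 0.0102, 0.0104 and 0.0112 for these 3 in edgeR. In DMSO, ITGA2 read 0.555 ± 0.24, TLR4 8.30 ± 1.38, TNXB 3.40 ± 0.83 and ANXA2 183 ± 23.2 CPM, each mean below that of p300 KO. ITGA8, an integrin subunit, fell by 0.29 ± 0.07 in the knockout and rose with the degrader, from 60.5 ± 0.50 to 131 ± 22.8 CPM (1.13 ± 0.14, adjusted p = 0.00409). Its knockout call was lost without p300 KO 2 or 3 or NTC 1, 2 or 4 (adjusted p up to 0.0691). Total-count scaling ended the knockout calls of TLR4, ANXA2 and ITGA8 (adjusted p = 0.0740, 0.177 and 0.185).

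Among 14 mucins and enzymes that build O-linked sugars on MUC1, 3 fell and 0 rose, with all libraries and without p300 KO 1. Over all genes, 10.7% were called lower and 6.23% higher with all libraries, and 40.9% were called without p300 KO 1. GCNT1, which makes the core 2 branch, fell from 9.70 ± 0.87 to 5.11 ± 1.04 CPM (-0.86 ± 0.13, edgeR adjusted p = 0.00247). Its DMSO libraries averaged 5.74 ± 0.47 CPM. ST3GAL1, a sialyltransferase, fell by 0.42 ± 0.10, and GALNT3, which starts such chains, by 0.29 ± 0.08, but both calls were lost without any 1 of the libraries other than p300 KO 1. Total-count scaling ended that of GALNT3 (adjusted p = 0.161). With the degrader GALNT3 was lower by -1.03 ± 0.18 on the log2 scale (adjusted p = 0.0168), a call lost without degrader 1, 3 or 4 or DMSO 1 or 4 (adjusted p up to 0.0718).

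Of 9 tested genes of sex steroid synthesis and receptors beside CYP19A1, 0 fell and 2 rose in the knockout, with all libraries and without p300 KO 1. Over all genes, 17.0% were called with all libraries and 40.9% without p300 KO 1. FDXR, which passes electrons through ferredoxin to mitochondrial steroid hydroxylases, rose from 31.9 ± 1.21 to 45.1 ± 5.74 CPM (0.55 ± 0.08, edgeR adjusted p = 0.00171). HSD17B4, a peroxisomal enzyme, rose by 0.33 ± 0.07 (adjusted p = 0.0137), a call lost without NTC 1 or NTC 4 (adjusted p up to 0.0550). Total-count scaling ended both calls, with FDXR at 0.40 (adjusted p = 0.316) and HSD17B4 at 0.15 (adjusted p = 0.706). In the list around KLLN, PIK3CA, a catalytic subunit of phosphoinositide 3-kinase, rose with the degrader from 3.75 ± 1.01 to 7.35 ± 0.58 CPM (0.97 ± 0.21, adjusted p = 0.0331), and leaving out any library but degrader 2 or DMSO 3 ended that call (adjusted p up to 0.115).

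Of 12 tested genes of ciliary dynein arm assembly beside LRRC56, 2 fell and 2 rose, beside 17.0% of all genes called. Without p300 KO 1, 3 fell and 2 rose of 13, in the fit that called 40.9% of all genes. ODAD1, which encodes a docking protein of outer dynein arms, fell from 5.00 ± 0.64 to 1.65 ± 0.21 CPM (-1.56 ± 0.17, edgeR adjusted p = 5.54e-04), and read 0.858 ± 0.21 CPM in DMSO. DNAAF2, a dynein assembly factor, fell by 0.49 ± 0.07 (adjusted p = 0.00257). SPAG1, also an assembly factor, rose by 0.41 ± 0.08 (adjusted p = 0.00662), and DNAL1, a dynein light chain, by 0.52 ± 0.12 (adjusted p = 0.0202), the last lost without any 1 NTC library (adjusted p up to 0.0663). Under total-count scaling DNAAF2 (adjusted p = 0.0579), SPAG1 (0.25, adjusted p = 0.505) and DNAL1 (0.32, adjusted p = 0.241) were not called. With the degrader DNAAF1, a further assembly factor, fell by 0.76 ± 0.17 (adjusted p = 0.0366), lost without any 1 of the libraries other than degrader 2 (adjusted p up to 0.121). Of 13 other crystallins only CRYGS was high enough to test, at 1.26 ± 0.23 CPM in NTC and 1.78 ± 0.30 CPM in p300 KO (0.56, adjusted p = 0.0820), and it was called higher without p300 KO 1, at 0.63. Of 3 tested relatives of LENG9 and ANKRD34A, ANKRD34C fell from 2.14 ± 0.17 to 1.06 ± 0.21 CPM (-0.96 ± 0.19, adjusted p = 0.00961).

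Over all 7 lists, 69 genes were tested with the degrader, and 2 fell and 2 rose, beside 4.76% of all genes called. Without degrader 2 these counts were 16 and 14 of 70, in the fit that called 38.5% of all genes. Total-count scaling ended all 4 of the main calls, of ITGA8, GALNT3, PIK3CA and DNAAF1 (adjusted p from 0.104 to 0.259).

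Several of the 8 genes are known from epithelia, matrix-forming cells or other tissues, so markers of other cell types were read beside them. The 7 fibroblast markers summed to at most 1.55 CPM in any library, with LUM at 0 in every group. The 7 epithelial markers summed to between 10.3 and 15.8 CPM in the DMSO and degrader libraries and between 15.7 and 19.0 CPM in the NTC and p300 KO libraries, with KRT19 at 0 in every group. Of 5 tested epithelial markers, 1 was called in the knockout, beside 17.0% of all genes. It was CDH1, the E-cadherin gene, which fell from 2.38 ± 0.30 to 0.842 ± 0.26 CPM (-1.48 ± 0.26, edgeR adjusted p = 0.00524). KRT18, the epithelial marker with the highest level, had a positive value, 0.24 ± 0.08 (adjusted p = 0.0582). KRT8, KRT7 and CLDN4 had negative values, -0.21, -0.23 and -0.44, and were not called. Without p300 KO 1, 2 of the 5 were called lower, in the fit that called 40.9% of all genes. CDH1 read 0.149 ± 0.12 CPM in DMSO, below its level in p300 KO. Without degrader 2 and p300 KO 1, the epithelial sums ran from 10.3 to 12.9 CPM with the degrader and from 15.7 to 16.7 CPM in p300 KO.

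The 5 monocyte markers summed to between 1.19 and 1.56 CPM in DMSO libraries, 0.593 and 0.962 CPM in degrader libraries, 6.54 and 9.99 CPM in NTC and 4.25 and 6.12 CPM in p300 KO. CSF1R, the macrophage growth factor receptor gene, was the only 1 tested and fell by 0.86 ± 0.16 in the knockout (edgeR, adjusted p = 0.00662). It averaged 7.26 ± 1.49 CPM in NTC, 3.86 ± 0.18 CPM in p300 KO and 0.940 ± 0.27 CPM in DMSO. The 6 T cell markers summed to between 40.2 and 44.8 CPM in DMSO libraries, 13.5 and 27.4 CPM in degrader libraries, 41.2 and 45.9 CPM in NTC and 28.3 and 33.8 CPM in p300 KO. TRAC, the T cell receptor alpha constant gene, fell from 19.3 ± 1.30 to 8.43 ± 1.35 CPM (-1.13 ± 0.10, adjusted p = 1.48e-04). CD3E, the other tested T cell marker, read 23.5 ± 1.22 CPM in NTC and 23.3 ± 1.55 CPM in p300 KO (0.04 ± 0.07, adjusted p = 0.680). Between the controls the 2 genes differed in opposite directions under like sums, with DMSO at 1.30 ± 0.52 CPM for TRAC and 41.1 ± 2.44 CPM for CD3E. With the degrader CD3E read 20.5 ± 6.31 CPM (-0.98 ± 0.21, edgeR adjusted p = 0.0348) and TRAC 1.94 ± 0.55 CPM (0.56 ± 0.36, adjusted p = 0.425). That call of CD3E was lost without any 1 of the libraries other than degrader 2 (adjusted p up to 0.121). Of 10 plasma cell markers, 5 fell in the knockout and 0 rose, beside 10.7% lower over all genes. Without p300 KO 1 these were 6 lower and 1 higher, in the fit that called 40.9% of all genes. Among the 5, CD38 lost its call without NTC 1, 3 or 4 and MZB1 without p300 KO 4 or any 1 NTC library. Total-count scaling ended the calls of all 5, IRF4, SLAMF7, TNFRSF17, CD38 and MZB1. With the degrader 1 of 9 tested plasma cell markers was called, beside 4.76% of all genes. It was IRF4, at a log2 fold change of -0.88 ± 0.12 (edgeR, adjusted p = 0.00475), not called under total-count scaling (adjusted p = 0.184). Without degrader 2, 2 plasma cell markers were called lower and 3 higher, in the fit that called 38.5% of all genes. Without degrader 2 and p300 KO 1, the T cell sums ran from 24.5 to 27.4 CPM with the degrader and from 32.6 to 33.8 CPM in p300 KO, and the monocyte sums from 4.25 to 4.47 CPM in p300 KO. The part of these shifts in the results for the 8 genes was not tested.

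The number of genes with at least 1 count stood in the order NTC, p300 KO, DMSO, which 5 of the 8 genes also showed. It ran from 29186 to 30119 in NTC, from 27546 to 28534 in p300 KO, from 26843 to 27501 in DMSO and from 23810 to 26510 with the degrader. Total counts ran from 21.2 M to 23.1 M in NTC, above the 17.4 M to 19.5 M of DMSO. The part of depth in these orders was not tested.

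Other genes were compared with the mean standardised log2 profile of the 8 over the 16 libraries. The choice of the 8 set much of that profile, since all were picked for high NTC and low p300 KO values, and the libraries share their groups. Of 15880 other genes compared, 253 had r above 0.9 with it, given as a description. The closest were ABCA13 at 0.985, MST1P2 at 0.982, IRF2-DT at 0.980, RNVU1-18 at 0.979 and TMEM116 at 0.979. ABCA13, a lipid transporter gene, had 0 counts in all DMSO and degrader libraries and averaged 0.918 ± 0.13 CPM in NTC and 0.161 ± 0.07 CPM in p300 KO (SD, n = 4). TMEM116 read 21.9 ± 1.17 CPM in NTC, 11.4 ± 1.47 CPM in p300 KO, 9.70 ± 0.90 CPM in DMSO, and with the degrader 8.99 ± 0.62 CPM. MST1P2 is a pseudogene and RNVU1-18 one of many near-identical U1 copies, so counts of both are uncertain.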

How the data were processed

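Bulk RNA of 16 NCI-H929 libraries was counted per gene by the authors, and the deposited values are whole-number counts for 57500 genes. The genome build was GRCh38, and the tools named per the submitters' processing notes were STAR 2.5.2b, Trimmomatic 0.36, DESeq2 1.16.1 and Subread 1.5.2 with its program featureCounts. Not given in the sources used here are whether strand was used, how multimapping reads were treated and which annotation release was counted, so overlapping genes are uncertain. The members, lists, markers and tests were chosen with earlier results of these data known.

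Symbols came from a table of Ensembl identifiers (40907 matched), and coding status from GENCODE 29. Counts were tested with edgeR 4.0.16 (R 4.3.3): filterByExpr, TMM, quasi-likelihood test, Benjamini-Hochberg adjustment over all genes tested, calls at 0.05. Each experiment was fitted on its own 8 libraries. NTC against DMSO and p300 KO against DMSO came from a fit on all 16. CPM were computed from the counts with TMM over all 16 libraries, and FPKM are those CPM per kilobase of the deposited exon length. SE is the absolute log2 fold change over the square root of F. Groups that do not overlap were counted among 18068 genes kept in the 16-library fit. Total counts were 12.6 M to 23.1 M (M, mega), and a count of 0 allows up to 3 counts. Such floors cover counting error only.

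Named genes, except for 1 that is not reported here, were the 8 members, EP300, called neighbours within 25 kb and the 2 nearest otherwise where they had symbols, up to 4 called genes per list and comparison with the smallest p, and the 5 most alike in profile. CRB2, ITGA8 in the knockout, CRYGS and the marker genes are outside this rule and were named once their values had been seen. DESeq2 1.42.0, limma-voom (limma 3.58.1), other scalings and filters, and leaving out each library were alternatives. Marker sums without degrader 2 and p300 KO 1 were added after seeing the data. No 2 replicates were taken as paired.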

Additional observations from a re-analysis of the deposited data

How the results depend on the processing

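Counts of calls depended on the processing more than the levels did. With the degrader, 0 of the 7 genes tested were called in the main analysis and with DESeq2, limma-voom and the replicate block, 1 with all 16 libraries in one fit, and 0 to 2 over the fits that leave out 1 library. The median knockout difference of the 8, -1.97, was -2.11 with total-count scaling and -2.02 to -1.88 with 1 library left out. The median control difference, 3.06, was 3.30 with total-count scaling and 2.93 to 3.15 with 1 library left out. Total-count scaling moved the median of all genes by -0.16 in the knockout, -0.14 with the degrader and 0.24 between controls. The totals it divides by include mitochondrial counts, which were 64.9% in degrader 2 and 47.7% in p300 KO 1. The part of these 2 libraries in the calls that ended under total-count scaling was not tested. The control difference was also fitted without degrader 2 and p300 KO 1, and on the NTC and DMSO libraries alone, both chosen after seeing the data, and its median moved by less than the spread between replicates.

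Neighbours called in the knockout, 5 in the main analysis, were 2 with total-count scaling, 3 with no low-count filter, 3 with all 16 libraries, 3 with the replicate block and 2 to 14 with 1 library left out. With the degrader, 2 neighbours became 1 with total-count scaling, 1 with no filter, 5 with DESeq2, 6 with all 16 libraries, 1 with the block and 1 to 14 with 1 library left out. List genes called in the knockout, 16, became 7 with total-count scaling, 8 with all 16 libraries, 10 with the block and 10 to 35 with 1 library left out. With the degrader, 4 list genes became 0 with total-count scaling, 9 with DESeq2, 16 with all 16 libraries, 0 with the block and 1 to 30 with 1 library left out.

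Over all genes, 755 calls with the degrader (260 higher, 495 lower) became 164 with total-count scaling (19 higher, 145 lower), 394 with no filter, 1796 with DESeq2, 2294 with all 16 libraries, 24 with the block and 197 to 6278 with 1 library left out. In the knockout, 2944 calls (1081 higher, 1863 lower) became 1265 with total-count scaling (61 higher, 1204 lower), 1484 with all 16 libraries, 1304 with the block and 1542 to 7246 with 1 library left out. The largest counts came without degrader 2 and without p300 KO 1. The cause of these differences was not tested.

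Replicate numbers are shared between groups, but the deviations of same-numbered libraries correlated at -0.35 to 0.08 with the degrader and -0.17 to 0.03 in the knockout, with no library closest to its own number there. Between the controls they correlated at -0.03 to 0.15, and replicate 3 was closest to its own number. Not every pair passed 0.1, so the libraries were taken to share only a number.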
